A study of Mus musculus with 12 samples.

Results

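The genes described here are 10 components and markers of the B cell receptor and the B lineage: Cd79a, Cd79b, Blk, Blnk, Cd22, Fcmr, Fcer2a, Fcrla, Pou2af1 and Mzb1. They were measured in lavaged alveolar macrophages, the phagocytes of the airspaces, on Illumina Mouse WG-6 v2 BeadChips. Every probe that the platform annotation assigns to 1 of these symbols was taken. This gave 20 of the 45281 probes and 9 of the 10 genes, out of 19057 named genes on the array. Cd79a matched no probe by symbol and was not analysed here. The exposed group held 6 C57Bl/6 mice that had received 100 µg of multiwalled carbon nanotubes (MWCNT) in 35% surfactant in saline through the oropharynx. The control group held 6 C57Bl/6 mice that had received the surfactant in saline alone. Lavage was at day 60 in both groups, each array held the RNA of 1 mouse, and the cells were over 90% pure per the study's design text, which leaves room for other cells in the samples. The labels used here give no sex.

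B cells recognise antigen through membrane immunoglobulin, which signals by way of the chains Cd79a and Cd79b. Src family kinases such as Blk phosphorylate these chains, the adaptor Blnk links them to the enzymes further down, and Cd22, a lectin for sialic acid, restrains the signal. The lavage of a healthy mouse lung holds mostly macrophages and few lymphocytes. The B lineage also has its own nuclear and secretory machinery, of which Pou2af1, a coactivator that works with octamer-binding factors, and Mzb1, an endoplasmic reticulum protein that helps to assemble antibody, are examples.

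Since Pou2af1 acts at the octamer motif, the stretches before the starts of 3 of the genes that rose are shown, those whose window ends at the start of the RefSeq gene. They are the 250 bases before the start, read 5′ to 3′ on the gene's strand, from RefSeq on GRCm38.p6, with any match to ATTTGCAT, or to ATGCAAAT on the other strand, in capitals.
Blnk, chr19:40994222-40994471, minus strand: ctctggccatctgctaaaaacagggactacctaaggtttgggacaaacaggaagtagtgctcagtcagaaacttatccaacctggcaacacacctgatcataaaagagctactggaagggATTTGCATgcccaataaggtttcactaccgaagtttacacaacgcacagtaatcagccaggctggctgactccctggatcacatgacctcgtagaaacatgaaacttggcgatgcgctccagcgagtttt
Pou2af1, chr9:51213440-51213689, plus strand: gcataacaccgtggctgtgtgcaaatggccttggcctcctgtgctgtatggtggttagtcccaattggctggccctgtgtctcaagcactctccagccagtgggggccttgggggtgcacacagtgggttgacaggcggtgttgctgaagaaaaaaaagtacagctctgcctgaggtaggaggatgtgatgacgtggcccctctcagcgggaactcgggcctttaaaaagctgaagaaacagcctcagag
Fcmr, chr1:130865527-130865776, plus strand: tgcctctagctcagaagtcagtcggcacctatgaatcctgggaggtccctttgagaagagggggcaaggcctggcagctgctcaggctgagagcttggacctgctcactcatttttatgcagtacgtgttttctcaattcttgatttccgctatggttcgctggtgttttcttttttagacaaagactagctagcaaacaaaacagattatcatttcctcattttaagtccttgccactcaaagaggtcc
The Blnk window held the motif, beginning 130 bases before the start, and the Pou2af1 and Fcmr windows did not hold these letters. Windows were found for 7 of the 10 genes, and 1 of their 9 windows held the motif. Of 32851 RefSeq windows of this length, 1.60% held it. A match is a description of the letters and not evidence of binding.

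Values below are background-corrected, quantile-normalized log2 intensities. A probe counted as detected on an array where its detection p against that array's negative-control beads was under 0.05. It was kept where it was detected on at least 3 of the 12 arrays. For a gene with several kept probes the brightest on average was used, and a gene was called at an adjusted p under 0.05 in limma's test over 13210 features. Signals of different probes were not compared with each other.

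The arrays carried the RNA of macrophages. All 9 kept markers of resident alveolar macrophages were detected on every control array, and their mean level was 12.92 to 13.05 on MWCNT arrays and 12.97 to 13.05 on control arrays. This mean covers 2 raised, 2 lowered and 5 uncalled genes, so it does not show that each gene was unchanged. Siglecf, Fabp1 and Atp6v0d2 of the same list were detected on no array. The share of probes detected was 39.1% to 40.5% on MWCNT arrays and 38.0% to 39.3% on control arrays. Y-linked transcripts of at least 2 genes were detected on MWCNT arrays 5 and 6 and on no other array. Results are also given without these arrays, which are called below those with Y-linked signal. MWCNT arrays 1 and 4 and control arrays 1, 2, 3, 4 and 6 detected 1 Y-linked gene each.

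Of the 9 measured genes, 7 rose with MWCNT, none fell, and Fcer2a and Cd22 were not called. Over all 10143 named genes, 12.8% were called, 7.48% raised and 5.30% lowered. Of the 7 that rose, 6 were detected on no control array and were kept only through the MWCNT arrays, so that a difference was built into their selection. Among the 266 named genes kept in this way, 67.7% were called raised. Such genes made up 2.62% of the named genes. Without any filter on dim probes, 731 of 19057 named genes were raised. The same 7 genes were called there (limma adjusted p from 0.00470 to 0.0282), while Fcer2a and Cd22 were not. In a separate fit over all 45281 probes, 2.48% were raised. The probes used for these 7 genes had limma adjusted p from 0.00563 to 0.0324 in that fit. Of the 16 kept probes of the members, 12 were raised, against 6.04% of all kept probes. All but 4 of the 16, probes of Fcrla and Cd22, were kept only through the MWCNT arrays. Several probes also report the same gene, so these shares are not like for like. In bulk samples, more cells of a type and more RNA per cell cannot be told apart.

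In the controls, 7 of the 9 measured genes were not detected on any array. Each control array detected the other 2, Fcrla and Cd22, while 16 of the 20 probes were detected on no control array. MWCNT arrays 1 to 4 detected all 9 genes, array 6 detected 8 and array 5 detected 3. The 3 genes detected on array 5 were Fcrla, Blnk and Cd22. With a stricter detection p of 0.01, Fcrla and Cd22 were again detected on every control array. The other 7 genes could not gain detection at a stricter threshold, so their number, again 7, was fixed in advance.

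**Figure D1:**
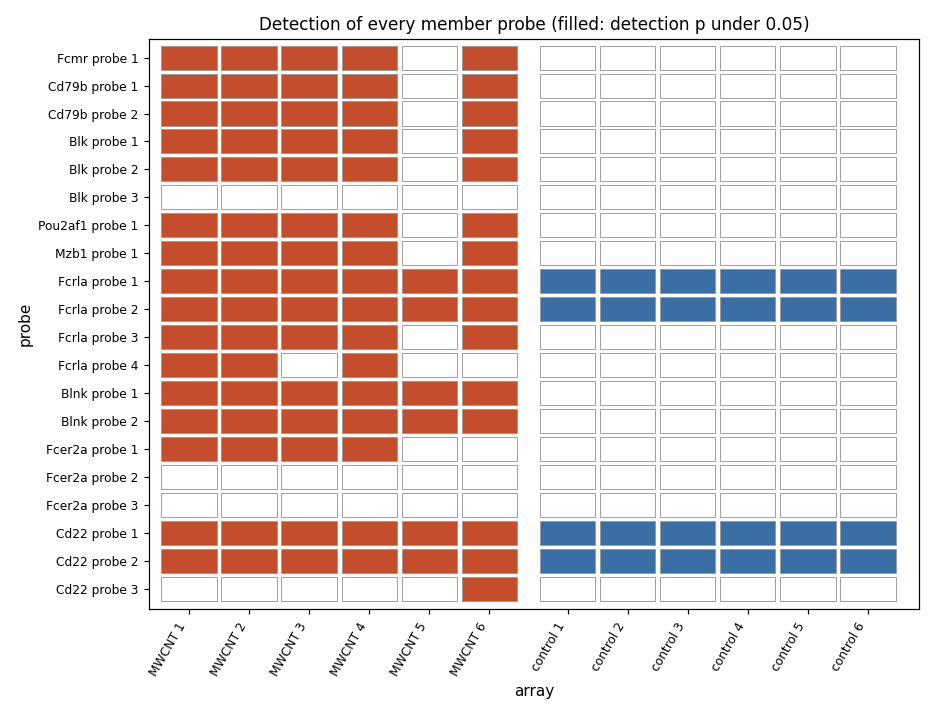
Detection of each of the 20 member probes (rows) on the 6 MWCNT arrays (left) and 6 control arrays (right), with filled cells where the detection p was under 0.05. The control side is filled only for 2 Fcrla and 2 Cd22 probes, and MWCNT array 5 has 6 filled cells against 15 or 16 on the other MWCNT arrays.

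Among the receptor chains and the kinases and adaptors that serve them, Cd79b, Blk and Blnk rose. Cd79b had 9.32, 8.59, 7.71, 7.70, 5.10 and 6.98 on MWCNT arrays 1 to 6, against 4.87, 5.17, 4.89, 4.76, 4.91 and 4.67 on control arrays 1 to 6. MWCNT array 5 lay inside the control range, and the other 5 MWCNT arrays lay above it. Cd79b averaged 7.57 ± 1.45 with MWCNT and 4.88 ± 0.17 in controls (SD, n = 6 each). It was at least 4.29-fold higher with MWCNT, a bound set against the lowest signal of detected probes because no control array detected it (limma adjusted p = 0.00399). Bounds for other genes below were set in the same way. The dimmer Cd79b probe, also without detection in controls, was at least 2.12-fold higher (adjusted p = 0.0115 over the kept probes).

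Blk, a Src family kinase of B cells, had 8.62, 8.19, 6.75, 8.22, 4.88 and 6.39 on MWCNT arrays 1 to 6, against 4.66, 4.70, 4.56, 4.72, 4.58 and 4.56 on control arrays 1 to 6. All MWCNT arrays were above all control arrays, although array 5 did so without detection. Blk was at least 3.27-fold higher with MWCNT (limma adjusted p = 0.00499). A second Blk probe, not detected in controls either, was at least 2.19-fold higher (adjusted p = 0.00758 over the kept probes). The dimmest Blk probe was detected on no array and was not kept.

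Blnk had 7.06, 7.17, 6.22, 6.85, 5.46 and 6.11 on MWCNT arrays 1 to 6, against 5.08, 5.34, 4.77, 4.79, 5.15 and 5.03 on control arrays 1 to 6. Among the members without detection in controls, it was the only one that all 6 MWCNT arrays detected. The groups did not overlap. Blnk was at least 2.02-fold higher with MWCNT (limma adjusted p = 0.00191), and its other probe, also undetected in controls, at least 2.00-fold (adjusted p = 9.45e-05 over the kept probes).

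Cd22, the inhibitory co-receptor, did not follow these genes. It had 9.62, 9.56, 9.73, 9.62, 9.89 and 9.56 on MWCNT arrays 1 to 6, against 9.64, 9.50, 9.59, 9.44, 9.79 and 9.70 on control arrays 1 to 6. The groups overlapped, and MWCNT array 5, the lowest array for the 7 genes that rose, was here the highest. The difference was 0.05 ± 0.08 on the log2 scale (SE, limma adjusted p = 0.734), with a 95% interval from -0.12 to 0.23. The second bright Cd22 probe differed by -0.03 ± 0.10 (adjusted p = 0.874 over the kept probes). The dimmest Cd22 probe was detected on MWCNT array 6 alone, so the Cd22 probes disagreed on whether the transcript was above background.

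**Figure D2:**
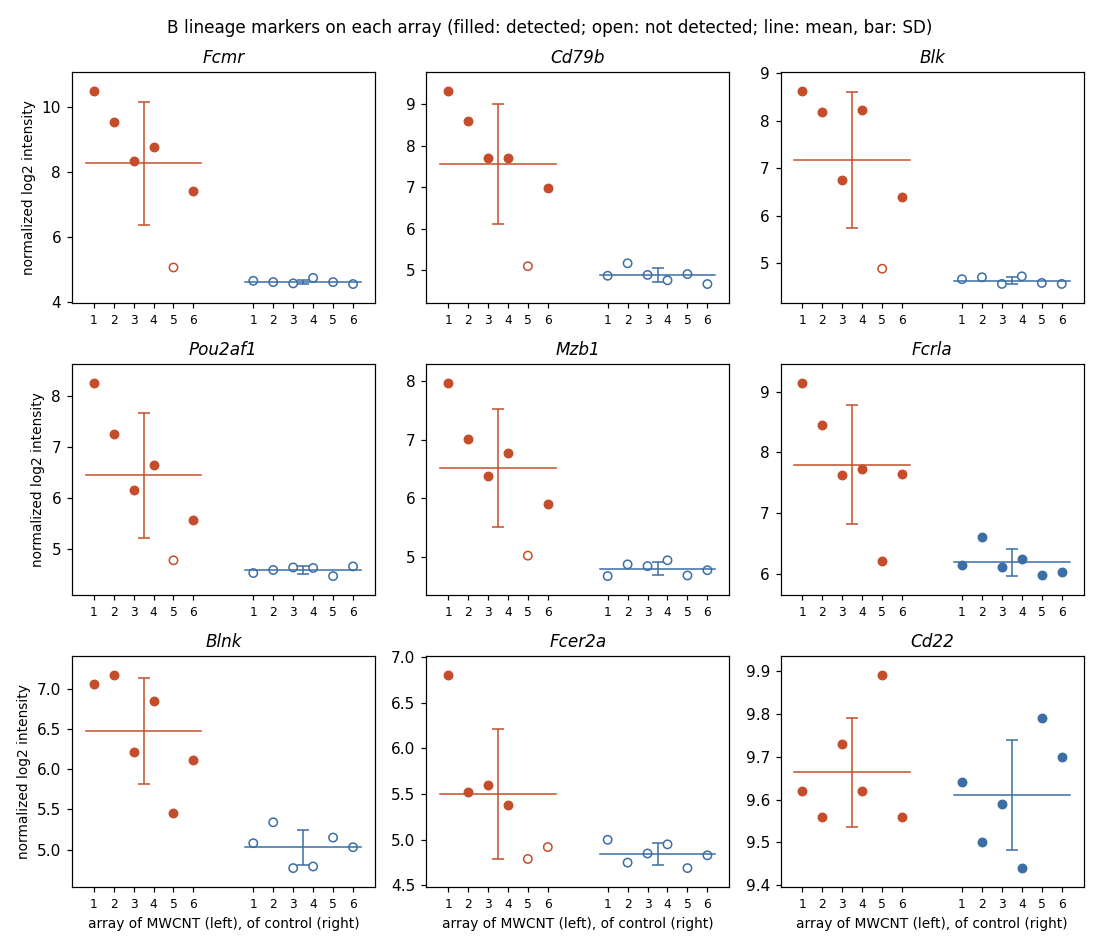
Normalized log2 intensity of the 9 measured genes on each array, 1 panel per gene with its own vertical scale, MWCNT arrays left and control arrays right. Filled points were detected, open points were not, lines are group means and bars the SD over 6 arrays. In the panels of the 7 raised genes the controls are tightly grouped and MWCNT array 5 sits lowest among the MWCNT arrays.

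Among the Fc receptors and their relatives, Fcmr and Fcrla rose and Fcer2a was not called. Fcmr, the Fc receptor for IgM, had 10.49, 9.55, 8.35, 8.76, 5.06 and 7.41 on MWCNT arrays 1 to 6, against 4.65, 4.61, 4.57, 4.74, 4.61 and 4.55 on control arrays 1 to 6. Its MWCNT arrays spanned more than any other member's, with an SD of 1.89 against 0.07 in controls. All MWCNT arrays were above all control arrays. Fcmr was at least 6.99-fold higher with MWCNT (limma adjusted p = 0.00289).

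Fcrla, an intracellular Fc receptor-like protein of B cells, was the only raised member with signal above background in the controls. It had 9.14, 8.45, 7.62, 7.73, 6.21 and 7.64 on MWCNT arrays 1 to 6, against 6.15, 6.60, 6.11, 6.24, 5.98 and 6.02 on control arrays 1 to 6. Array 5 lay within the control range and the other MWCNT arrays above it. Fcrla rose 3.06-fold (log2 difference 1.62 ± 0.36 SE, limma adjusted p = 0.00930). Its 4 kept probes did not all behave alike. The other probe detected on all 12 arrays rose by 1.67 ± 0.32 (adjusted p = 0.00420 over the kept probes). The brighter probe of those without detection in controls was at least 2.01-fold higher (adjusted p = 0.00241). The fourth, detected on 3 MWCNT arrays and no control array, was not called (adjusted p = 0.0921).

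Fcer2a, the low-affinity IgE receptor CD23, was detected on MWCNT arrays 1 to 4 and on no control array. It had 6.80, 5.52, 5.60, 5.38, 4.79 and 4.92 on MWCNT arrays 1 to 6, against 5.00, 4.75, 4.85, 4.95, 4.69 and 4.83 on control arrays 1 to 6. Arrays 5 and 6 lay within the control range. Fcer2a was at least 1.03-fold higher with MWCNT and did not pass (limma adjusted p = 0.118). The fitted log2 difference, taken against controls that are not above background, was 0.65 ± 0.26 (SE). It rested in part on MWCNT array 1, without which it was 0.40 (adjusted p = 0.105). Without MWCNT arrays 5 and 6, those with Y-linked signal, Fcer2a was at least 1.28-fold higher and was called (adjusted p = 0.0157). These were its lowest MWCNT arrays, so a larger difference was fixed in advance. The other Fcer2a probes, 2 in number, were detected on no array.

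**Figure D3:**
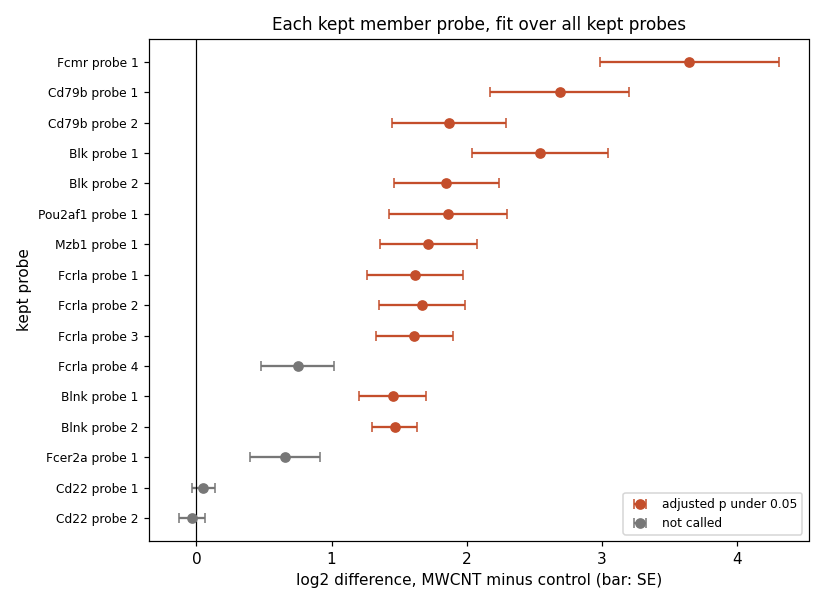
Log2 difference, MWCNT minus control, of the 16 kept member probes with the SE of the fit over all kept probes. Orange points passed an adjusted p of 0.05 and grey ones did not. The 12 called probes lie between 1.45 and 3.65, while both Cd22 probes lie near 0. For probes without detection in controls the plotted difference is taken against background.

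The 2 markers of B lineage gene regulation and antibody assembly rose as well. Pou2af1 had 8.26, 7.26, 6.15, 6.65, 4.77 and 5.56 on MWCNT arrays 1 to 6, against 4.52, 4.58, 4.63, 4.62, 4.46 and 4.65 on control arrays 1 to 6. It was at least 1.97-fold higher with MWCNT (limma adjusted p = 0.0134). Mzb1 had 7.97, 7.02, 6.39, 6.78, 5.02 and 5.90 on MWCNT arrays 1 to 6, against 4.67, 4.87, 4.84, 4.94, 4.68 and 4.77 on control arrays 1 to 6. It was at least 2.07-fold higher with MWCNT (limma adjusted p = 0.00687). For both genes all MWCNT arrays were above all control arrays, with array 5 nearest to the controls and below detection. The groups did not overlap for 5 of the 9 measured members. All 5 were raised and were kept only through the MWCNT arrays, so that a difference was built into their selection. Over all 10143 named genes, 447 (4.41%) had every MWCNT array above every control array, and 759 were raised. No member had every MWCNT array below every control array, as 2.59% of all named genes did.

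The 7 raised members ordered the exposed mice in nearly the same way. MWCNT array 5 was the lowest MWCNT array for 7 of 7, array 1 the highest for 6 of 7, and array 6 the second lowest for 6 of 7. Their mean difference from the control mean was 3.73, 3.07, 2.07, 2.57, 0.26 and 1.61 on MWCNT arrays 1 to 6, against -0.07 to 0.17 on control arrays. These means describe genes chosen because they were called, and 5 of the 7 were not detected on array 5, where the mean is mostly a difference between values at background. Arrays 5 and 6 were also those with Y-linked signal, whose part in the order was not tested. Without these arrays all 7 were called again. Since these were the lowest MWCNT arrays for 6 of 7, larger differences were fixed in advance, so this does not test the Y-linked signal. Fcmr was then at least 14.1-fold higher (limma adjusted p = 1.84e-06), and Cd79b exceeded its controls at least 7.28-fold (adjusted p = 6.16e-06).

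The size of the differences moved with the processing, while each of the 7 calls held under every alternative that kept the gene. In the authors' processed values the fitted log2 difference was 1.23 for Fcmr (adjusted p = 0.0272), 0.74 for Cd79b (0.0295), 0.64 for Blk (0.0244) and 0.56 for Fcrla (0.0343). It was 0.41 for Pou2af1 (adjusted p = 0.0497), 0.34 for Mzb1 (0.0361) and 0.27 for Blnk (0.0111). The bounds given above therefore hold for the background correction used here.

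Likeness to Cd79b was measured as the Pearson correlation, over the 12 arrays, of each gene's deviations from its own group means. The points share arrays, and most of the deviation lies among the 6 MWCNT arrays. Among all 10143 named genes the highest values belonged to Fcmr (r = 0.989), Fcrla (0.969) and Mzb1 (0.963). Pou2af1 ranked 5 (r = 0.949), Blk ranked 15 (0.931), Blnk ranked 35 (0.898) and Fcer2a ranked 145 (0.820), whereas Cd22 had r = -0.539. The nearest genes outside the list, names of clones left aside, were Mmp2, a gelatinase (r = 0.959), Orm1, an acute phase protein (0.946), Sema4d, a semaphorin (0.941), St6galnac3, a sialyltransferase (0.941), and Gypc, a membrane protein of red cells (0.939). Spearman's rho was 0.797 for Fcmr, 0.629 for Fcrla, 0.734 for Mzb1 and 0.867 for Mmp2. Without MWCNT arrays 5 and 1, the farthest from the median of Cd79b, r was 0.923 for Fcmr, 0.806 for Fcrla, 0.828 for Mzb1, 0.778 for Mmp2 and 0.510 for Orm1. It was 0.461 for Fcer2a and -0.13 for Cd22, so that the negative value of Cd22 rests largely on these arrays. No p is given, since these genes were picked as the highest.

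Of 82 other genes of B cell biology in 5 lists, 66 had a probe and 50 were kept. Of these 50, 14 rose and none fell, or 28.0% raised against 7.48% of all named genes. These shares are not like for like. Of the 50, 5 were kept only through the MWCNT arrays, Rasgrp3, Bcl11a and Lta among them. Genes kept in this way made up 2.62% of all named genes, and 67.7% of them were raised. In contrast, 37 of the 50 were detected on every control array, and which cells gave these signals was not tested. Their median log2 difference was 0.10, against -0.02 over all named genes. Among co-receptors and surface proteins 5 of 13 rose. Cd72, a B cell co-receptor, rose by 2.53 ± 0.27 (SE, adjusted p = 6.87e-05), Cd40, a receptor for T cell help, by 1.75 ± 0.20 (adjusted p = 9.85e-05) and the chemokine receptor Ccr7 by 1.24 ± 0.16 (adjusted p = 0.000249). Cd81, a tetraspanin, differed by 0.06 ± 0.08 (adjusted p = 0.657). Cd72 had its lowest MWCNT value, 7.27, on array 5, still above the highest control value of 6.08.

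Of 17 genes of receptor signalling 4 rose and 13 were not called. Prkcb, a protein kinase C, rose by 1.87 ± 0.28 (SE, adjusted p = 0.000698) and Btla, an inhibitory receptor, by 1.13 ± 0.18 (adjusted p = 0.00131). Rasgrp3, a Ras activator, exceeded its controls at least 1.72-fold (adjusted p = 0.000814), whereas the adaptor Pik3ap1 differed by -0.11 ± 0.06 (adjusted p = 0.276). The kinases Syk and Btk and the phospholipase Plcg2, which macrophages also use, differed by -0.12, -0.17 and -0.08 and were not called. Of 11 transcription factors 1 rose, Bcl11a, which exceeded its controls at least 1.42-fold (adjusted p = 0.000999), while Ikzf1 differed by -0.09 ± 0.07 (adjusted p = 0.416).

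Of 4 kept plasma cell and antibody genes, Fkbp11, a prolyl isomerase of the secretory pathway, rose by 1.85 ± 0.22 (SE, adjusted p = 0.000135), and Xbp1, a regulator of secretion, differed by -0.17 ± 0.07 (adjusted p = 0.120). Of 5 germinal centre and follicle genes 3 rose. Ltb, a lymphotoxin subunit, rose by 1.84 ± 0.34 (SE, adjusted p = 0.00281), S1pr2, a sphingosine phosphate receptor, by 0.37 ± 0.08 (adjusted p = 0.00930), and Lta, the other subunit, lay at least 1.35-fold above its controls (adjusted p = 0.0124). Tnfsf13b, the B cell survival factor BAFF, differed by -0.47 ± 0.21 (adjusted p = 0.172). Several defining B lineage genes were detected on too few arrays to be kept. Pax5, Cr2, Bank1, Jchain, Prdm1 and Tnfrsf17 were detected on no array, Ms4a1 on no MWCNT array and 1 control array, and Tnfrsf13c, the BAFF receptor, on 2 MWCNT arrays and no control array. Tnfrsf13c had 6.20, 5.56, 5.04, 5.18, 4.80 and 4.98 on MWCNT arrays 1 to 6, against 4.51 to 4.76 on control arrays, and was not tested.

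**Figure D4:**
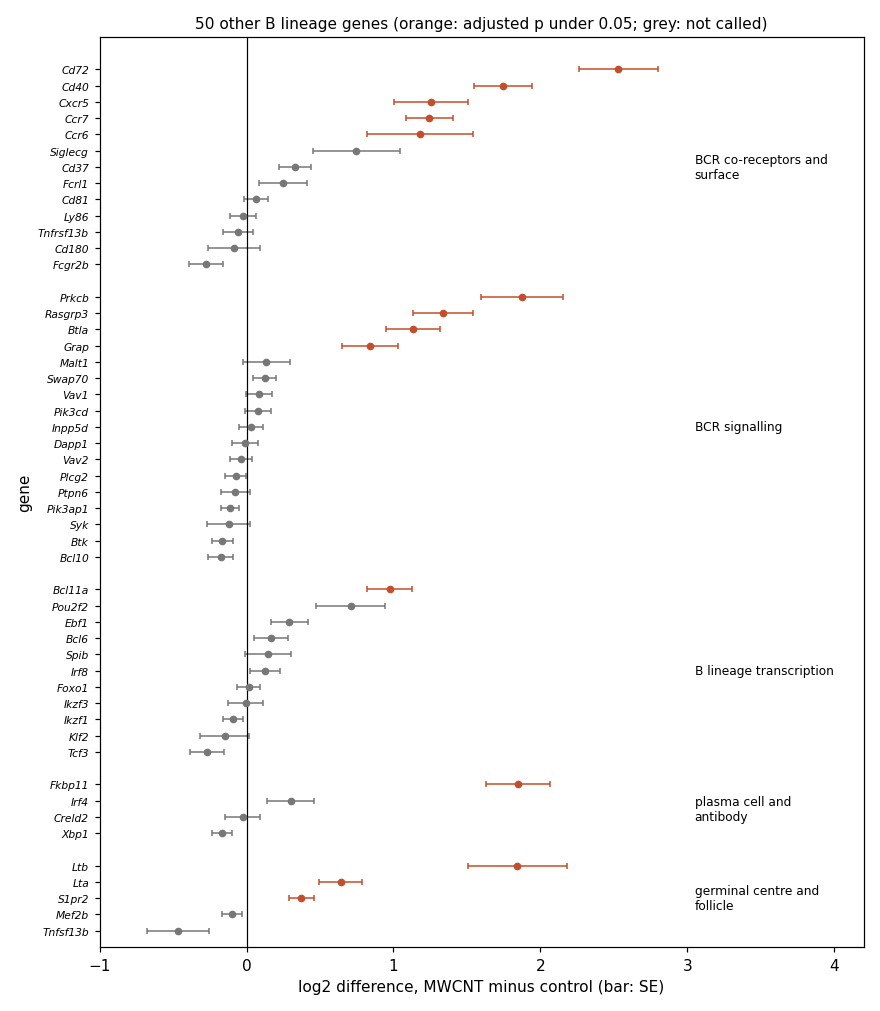
Log2 difference, MWCNT minus control, with SE for the 50 kept other B lineage genes in 5 lists. Of these, 37 were detected on every control array, and which cells gave their signal was not tested. Orange points passed an adjusted p of 0.05 and grey ones did not. The 14 called genes all lie right of 0, led by Cd72 at 2.53, and most signalling genes and transcription factors lie near 0. For the 5 genes detected on no control array the plotted difference is taken against background.

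Markers of other leukocytes differed on the same arrays, and their part in the results above was not tested. Over all named genes the share raised was 7.48%. Of 11 kept T cell markers 8 rose, and the mean level of the 11 was 7.49 to 8.85 on MWCNT arrays and 6.70 to 7.07 on control arrays. Of the 11, 3 were detected on no control array and were kept only through the MWCNT arrays, so that a difference was built into their selection. Cd4, Cd8a and Cd5 were detected on no array. Of 6 plasmacytoid dendritic markers 4 rose, with a mean level of 6.95 to 8.27 on MWCNT arrays and 6.38 to 6.77 on control arrays. Ptprcap and Ly6d of that list are also made by lymphocytes, and both were kept only through the MWCNT arrays. Ccr9 and Upb1 were detected on no array. Of 6 neutrophil markers 3 rose, with a mean level of 8.14 to 8.88 on MWCNT arrays and 7.40 to 7.79 on control arrays. S100a9 of that list was kept only through the MWCNT arrays, and Ngp and Camp were detected on no array. The markers of resident alveolar macrophages were split, with 2 raised and 2 lowered of 9.

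MWCNT array 5 was the lowest MWCNT array for T cell, plasmacytoid dendritic and neutrophil markers too. The mean difference from the control mean was 0.42 there for plasmacytoid dendritic markers and 0.55 for neutrophil markers. Both lists were highest on MWCNT array 1, at 1.74 and 1.30. The mean difference of the 11 T cell markers from the control mean was 1.92, 2.00, 1.12, 1.49, 0.64 and 1.57 on MWCNT arrays 1 to 6, against -0.15 to 0.22 on control arrays. Cd3e, a signalling subunit that T cell receptors need, had 6.61 on MWCNT array 5, above its highest control value of 5.64. On the same array Cd79b was not detected and lay within its control range. Fcrla was detected there and also lay within its control range. Blnk was detected there at 5.46, above its highest control value of 5.34. Fcmr, Blk, Pou2af1 and Mzb1 lay above their control ranges without detection. The T cell list holds called and uncalled genes and the 7 B lineage genes were chosen as called, so the sizes of their means were not compared.

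**Figure D5:**
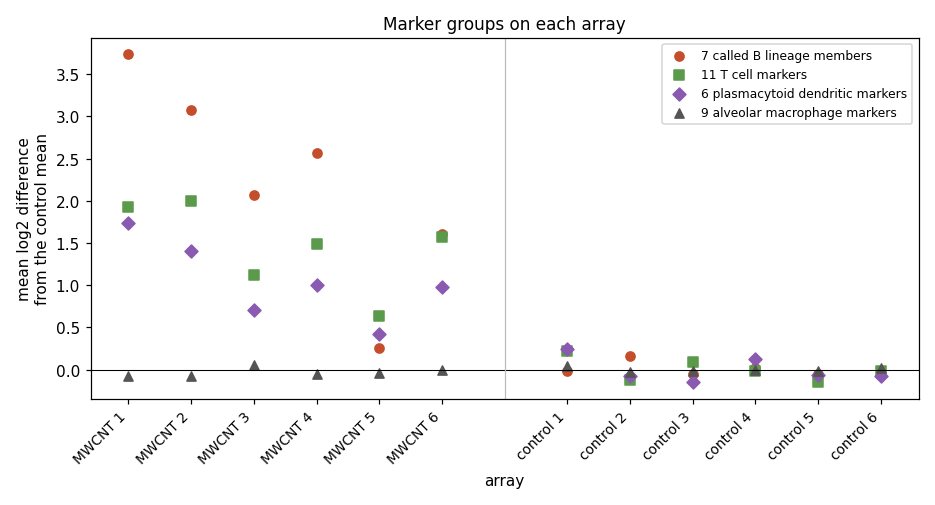
Mean log2 difference from the control mean on each array, MWCNT arrays left and control arrays right, for the 7 called B lineage genes (circles), 11 T cell markers (squares), 6 plasmacytoid dendritic markers (diamonds) and 9 alveolar macrophage markers (triangles). The B lineage circles run from 0.26 on MWCNT array 5 to 3.73 on array 1, and the macrophage triangles stay near 0. The triangles average 2 raised, 2 lowered and 5 uncalled genes. On MWCNT array 5, 5 of the 7 B lineage genes were not detected.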

How the data were processed

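RNA of 12 mice was measured on 1 bead array each. Per the file headers, the table of scanner output has 1 intensity and 1 detection p-value per probe on every array. These intensity values were deposited on a linear scale without background subtraction or normalization between arrays, since column medians differ. A second deposited table has the authors' processed intensity values, for which the submitters' processing notes name lumi. No source used here gives the settings of lumi.

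The scanner intensities were normalized with R 4.3.3 and limma 3.58.1 (neqc, offset 16, negative controls inferred from detection p) and tested with lmFit and eBayes without covariates, two-sided, with Benjamini-Hochberg adjustment over 13210 features, of which 10143 were named genes. Of the probes, 34885 had 1 symbol, 18 several and 10378 none. Other probes of the members were tested among the 19291 kept probes, and those not kept in a fit over all 45281. The number of arrays limits the precision. The fit was tested on simulated data. The members, gene lists and tests were chosen with earlier results of these data known. Named genes were all members, up to 3 called genes and the brightest uncalled gene of each B lineage and other cell type list, and the 5 genes most like Cd79b. Of the other cell types, only those a result touches are printed. Syk, Btk, Plcg2 and the genes not kept were named after their values were seen. Other background corrections, scalings, filters, probe rules, variance models and weights, a replicate block and leaving arrays out were tried, and the closing section gives their effect. Figures were drawn with matplotlib 3.10.9 in Python 3.11.15.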

Additional observations from a re-analysis of the deposited data

Results flagged for a closer look

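Some arrays stood apart from the rest of their group by Dixon's test for 6 values, which was run on 92 combinations of a named gene and a group and flags about 5% of groups by chance. None of the 9 measured members was among them. Cd40 on MWCNT array 5 was 7.19, with the other MWCNT arrays from 8.04 to 8.55. Cxcr2, a neutrophil chemokine receptor, was 6.15 on the same array, with the others from 6.93 to 7.25. Lta was 6.55 on MWCNT array 3, with the others from 5.66 to 5.87, and 4.83 without detection on control array 4, with the others from 5.23 to 5.47. Pik3ap1 was 14.10 on control array 2, with the others from 13.95 to 14.01. S100a9, a calcium-binding protein of neutrophils, was 5.21 without detection on control array 1, with the others from 4.51 to 4.73. Tnfsf13b was 10.11 on control array 3, with the others from 10.65 to 10.84, and Sema4d was 6.35 on that array, with the others from 5.90 to 6.03.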

How the results depend on the processing

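The members had 7 raised and none lowered in the fit reported, and 7 when any 1 of the 12 arrays was left out. The count was also 7 without background correction, with normexp, with median scaling, with recentring on the kept probes, in the authors' values, with no filter, with the mean of a gene's probes, with all kept probes tested separately, with trend and robust variances and with array weights, and 8 without the arrays with Y-linked signal, Fcer2a being added. The arrays with Y-linked signal were the lowest MWCNT arrays of Fcer2a, so its larger difference without them was fixed in advance. With probes detected on all 12 arrays only 2 members could be tested and 1 was raised, since fewer genes enter. In that setting the other B lineage genes had 6 raised of 37. In the other settings those genes had 12 to 17 raised, and 13 to 16 with 1 array left out, with at most 1 lowered. With the replicate number as a replicate block, 7 members and 16 other B lineage genes were raised. The numbers were not treated as pairs, because correlations of same-numbered deviations ran from -0.18 to 0.15, with 4 of 6 above 0.1, but 3 of 6 MWCNT arrays correlated best with their own number, which leaves a shared batch unsettled. Over all named genes median scaling gave 1356 raised and 127 lowered, against 759 and 538, and moved the median log2 difference of all features to 0.10 from -0.02. No member changed direction under any alternative. Without MWCNT array 5 the fitted log2 difference of Fcmr was 4.29, and without MWCNT array 1 it was 3.20. Signal over background limits the 6 raised genes without detection in controls to lower bounds, which compare group means and do not cover the spread between mice.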
